A study of Mus musculus with 18 samples.

Results

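Round spermatids (RS) of GRTH knock-in (KI) and knockout (KO) mice were compared directly, with 5 KI libraries (KI 1, 2, 3, 5 and 6) set against 6 KO libraries (KO 1 to 6), which is 11 of the 18 libraries of the series. The members were chosen by the genotype and number in their labels. The library labelled KI 4 was left out because its level of Ddx25, the targeted gene, lay in the range of the KO libraries. The 6 WT libraries entered the model for its estimate of spread and are given beside each result. RS came from testes of mice 75 to 85 days old, were dispersed with collagenase and trypsin and collected from a sedimentation gradient of bovine serum albumin, and their total RNA was made into stranded libraries without polyA selection. In KO mice the GRTH protein is absent. KI mice carry a human GRTH gene with a missense mutation, and lack the phosphorylated form of the protein while the non-phosphorylated form is present, as the study describes them. The labels do not give the strain of any genotype, nor whether 2 libraries of a genotype came from different animals, so the p-values measure the spread between these libraries, which may be technical in part.

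GRTH (DDX25) is a DEAD-box RNA helicase of germ cells and Leydig cells. Enzymes of this family remodel RNA and RNA-protein complexes with the energy of ATP, and GRTH is known to carry mRNAs out of the nucleus and to take part in their storage in the chromatoid body, a perinuclear granule of RS, and in their translation. RS are haploid cells that store mRNAs for later use, since transcription stops as they elongate and protamines replace the histones. Both mutant mice are known to be sterile with an arrest of RS before elongation. KI against KO asks which transcripts differ between loss of the whole protein and loss of its phosphorylated form.

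The counts on genes summed to 19996042 to 24915182 in the KI libraries and 18766971 to 25654453 in the KO libraries. Levels are given as CPM, the counts of a gene per 1000000 counts of a library after scaling between libraries, and up to 3 counts in a library were read as its floor. The 2 RNAs of the mitochondrial ribosome took 7.73% to 15.5% of counts in KI and 7.07% to 21.3% in KO. Summed over 8 markers of round spermatids, the level was 549 to 748 CPM in KI and 512 to 1077 CPM in KO, and 8 spermatocyte markers summed to 707 to 778 CPM and 680 to 799 CPM. All 8 round spermatid markers were lower in KI, by -0.41 to -0.12 log2 units (median -0.34), and 0 were called. The median of the spermatocyte markers was 0.04. Markers of other testis cells were seen in both genotypes with none of any list at 0, though 1 of the 8 Sertoli cell markers stood at the floor in both. Spermatogonial markers summed to 22.5 to 45.8 CPM in KI and 32.6 to 70.8 CPM in KO, and none of the 7 tested was called by edgeR or DESeq2, although 5 of them were lower in KI at an unadjusted p under 0.05. Sertoli cell markers summed to 13.7 to 18.2 and 11.2 to 18.1 CPM and macrophage markers to 14.3 to 19.3 and 9.38 to 21.9 CPM, and 0 of the 7 tested in each list were called by edgeR or DESeq2 or had an unadjusted p under 0.05. Leydig cell markers summed to 15.8 to 78.4 CPM in KI, 35.5 to 61.5 CPM in KO and 10.3 to 22.8 CPM in WT. Fewer cells of a type and less RNA per cell cannot be told apart in such samples, and the part of these cells in the results was not tested.

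Ddx25 (ENSMUSG00000032101, chr9:35536647-35558528, minus strand, GRCm38) was at 0.354 CPM in KI 1, 0.519 in KI 2, 0.0456 in KI 3, 0.327 in KI 5 and 0.245 in KI 6, which are 1 to 13 counts a library. The KO libraries held 47.7 CPM at the lowest, 72.2 at the median and 91.0 at the highest, and the WT libraries 538, 564 and 608. KI 4 held 57.1 CPM. KO thus kept some transcript of the mouse gene, less than WT, and KI almost none. Counts on the mouse gene do not measure the human gene that KI mice carry. Because Ddx25 decided which library was left out, its difference is given as a description with no test.

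KI and KO differed at few genes. Of 21257 genes tested, 60 were called higher in KI (0.282% of those tested) and 51 lower (0.24%), 111 in all (0.522%), in a quasi-likelihood test for a change of any amount at an adjusted p under 0.1. A test against a change of 1 log2 unit called 9 higher (0.0423%) and 6 lower (0.0282%), 15 in all (0.0706%). These counts hold Ddx25, whose level chose the library left out and whose call is therefore no result; without it they are 110 genes, 50 of them lower, and past 1 log2 unit 14, with 5 lower. In the same model KO differed from WT at 6494 genes (30.5%) and KI from WT at 6451 (30.3%), and past 1 log2 unit at 379 (1.78%) and 416 (1.96%); both comparisons share the WT libraries. The median difference over all genes, KI minus KO, was -0.03 log2 units, with quartiles of -0.22 and 0.14. For 81.0% of all genes, and for 96.1% of the 10729 genes with a mean of at least 5 CPM, the 95% interval of the difference lay inside 1 log2 unit on either side. Of the called genes, 47 of the 111 (42.3%) had a mean of at least 5 CPM, against 50.5% of all genes tested. The KI and KO libraries did not overlap for 76 of the 111, 34 higher and 42 lower in KI. Among all genes tested 259 had no overlap (1.22%), 95 with KI above (0.447%) and 164 with KI below (0.772%).

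**Figure D1:**
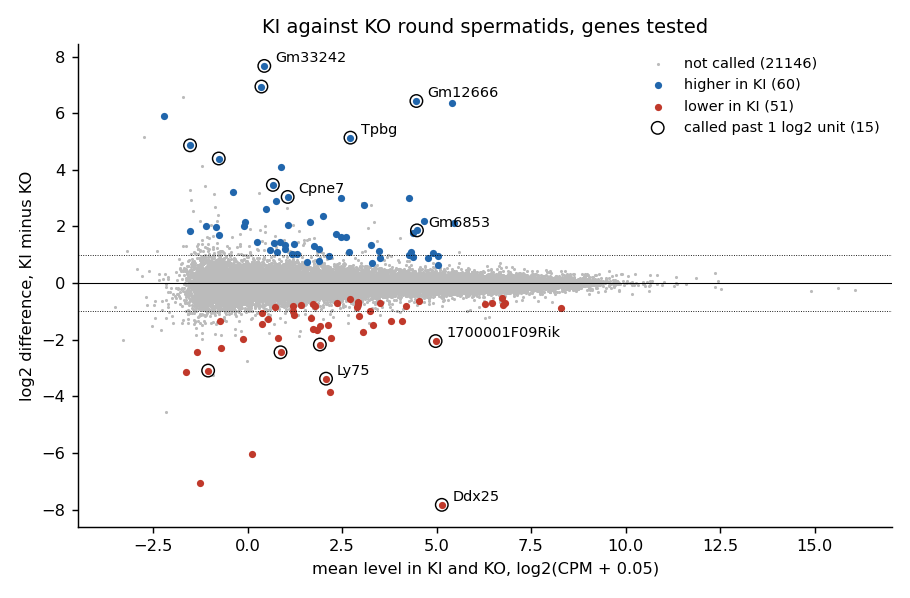
The log2 difference KI minus KO of each gene tested (y axis) is plotted against its mean level in the KI and KO libraries as log2(CPM + 0.05) (x axis). Blue points are the 60 genes called higher in KI, red points the 51 called lower, circles the 15 called past 1 log2 unit and dotted lines mark 1 log2 unit; called genes are seen at low and at high levels, and the grey mass of genes not called lies around 0.

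The count of calls rests on which libraries are kept. With KI 4 kept in KI, 16 genes were higher and 5 lower, with 1 past 1 log2 unit. Of the 110 called genes other than Ddx25, KI 4 lay nearer the KO mean for 106, and of the 75 without overlap it lay inside the KO range for 57 and inside the KI range for 0. The other KI libraries lay nearer the opposite genotype for 6 to 23 of these genes and the KO libraries for 2 to 9. The genes were called from these libraries and not from KI 4, so these low numbers are in part fixed by the calls and are no yardstick for KI 4. Leaving out KO 2, KO 4 or KO 5 gave 62, 59 and 59 calls. Without KO 6 the higher calls went to 33, and without KI 3 or KI 6 the lower calls went to 32 and 30. By the median squared difference of their counts relative to counting error, KI 4 and KO 2 were the closest pair of all the KI and KO libraries (1.59), ahead of KO 4 with KO 5 (2.05). The labels call KI 4 a KI library, and nothing else in them settles whether it is a KO sample. With KO 2 taken out of the KO mean and range, KI 4 lay nearer the KO mean for 104 of the 110 genes and inside the KO range for 52 of the 75. KO 4 with KO 5, KI 1 with KI 2 and KI 3 with KI 5 were the closest pairs within a genotype, and with these pairs and the pairs of WT summed, 27 genes were called higher and 17 lower, 42 of them among the 111. In all 17 fits that left out 1 library, 47 of the 111 genes stayed called.

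The 10 lists of pathway genes held 239 different genes that were tested, of which edgeR called 0 and DESeq2 0. The share of all genes called, 0.522%, would give 1.25 of 239, so 0 is near the background. Of the 239 genes, 8 (1 higher and 7 lower) had an unadjusted p under 0.05, against 9.15% of all genes tested. The 95% interval of the difference lay inside 1 log2 unit for 234 of the 239. None of the 37 other DEAD-box helicases was called, and their median difference was 0.06 log2 units. Ddx4 (vasa, a germ cell helicase and a core protein of the chromatoid body) stood at 897 ± 224 CPM (SD, n = 5) in KI and 849 ± 102 CPM (SD, n = 6) in KO. Ddx5, a helicase that takes part in splicing and microRNA processing, stood at 1420 ± 261 and 1441 ± 99.9 CPM. Both genes had intervals that left out a change of 1 log2 unit, from -0.25 to 0.41 for Ddx4 and from -0.33 to 0.29 for Ddx5.

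The same held for the lists that follow the path of an mRNA. Of the 24 genes of the chromatoid body and the piRNA pathway none was called (median -0.03 log2 units), with Tdrd6, a tudor protein that holds the chromatoid body together, at 1741 ± 289 CPM in KI and 1446 ± 209 CPM in KO (interval -0.03 to 0.56). Of 25 genes of mRNA export none was called (median 0.07), with the export receptor Nxf1 at 267 ± 32.7 CPM in KI and 235 ± 28.4 CPM in KO (interval -0.06 to 0.43). Of 16 genes of microRNA processing none was called (median 0.12), with Xpo5, which carries precursor microRNAs out of the nucleus, at 88.0 ± 15.5 CPM and 83.1 ± 8.48 CPM. Of 27 genes of mRNA storage and translation none was called (median -0.08), with the storage protein Ybx2 at 1156 ± 259 CPM in KI and 1223 ± 359 CPM in KO (interval -0.50 to 0.34) and the poly(A)-binding protein Pabpc1 at 2600 ± 761 and 2664 ± 717 CPM. All genes tested had a median of -0.03, so these medians lay within the quartiles of all genes.

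Many genes of sperm formation were lower than WT in both mutants, and none was called between KI and KO. Among 21 genes of spermatid chromatin, 12 were lower in KO than in WT (13.7% of all genes tested were). In KI 13 were lower than in WT (15.8% of all were). The medians were -1.01 and -1.32 log2 units, and 0 were called between KI and KO. Their KI minus KO median was -0.222, just below the lower quartile of all genes tested, -0.216. The study named many of these genes, and of the flagellum genes below, as changed in these samples. Their counts against WT are therefore no independent evidence of direction. Prm2, a protamine, stood at 518 ± 71.0 CPM in KI, 593 ± 188 CPM in KO and 6077 CPM in WT, and its KI minus KO difference was -0.19 log2 units with an interval from -0.64 to 0.25. Tnp1, a transition protein that packs spermatid DNA before the protamines, stood at 491 ± 46.3, 583 ± 149 and 1999 CPM, with a difference of -0.25 (interval -0.59 to 0.10). Tnp2 stood at 385 ± 51.3, 450 ± 119 and 1961 CPM, with a difference of -0.22 (interval -0.61 to 0.16). The 21 acrosome genes (median -0.19), the 33 genes of the flagellum (median -0.16) and the 23 apoptosis genes (median -0.06) held no call either. Odf2, a protein of the outer dense fibres of the sperm tail, stood at 1438 ± 226 CPM in KI, 1733 ± 1022 CPM in KO and 4214 CPM in WT. Of the 23 ubiquitin, kinase and phosphatase genes that the study named from these samples, 22 were lower than WT in KO and 22 in KI, which is no independent evidence of direction, and 0 were called between KI and KO (median -0.16). Klhl10, an adaptor of a cullin ubiquitin ligase needed for sperm maturation, stood at 171 ± 40.9 CPM in KI and 188 ± 73.6 CPM in KO (interval -0.64 to 0.36).

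**Figure D2:**
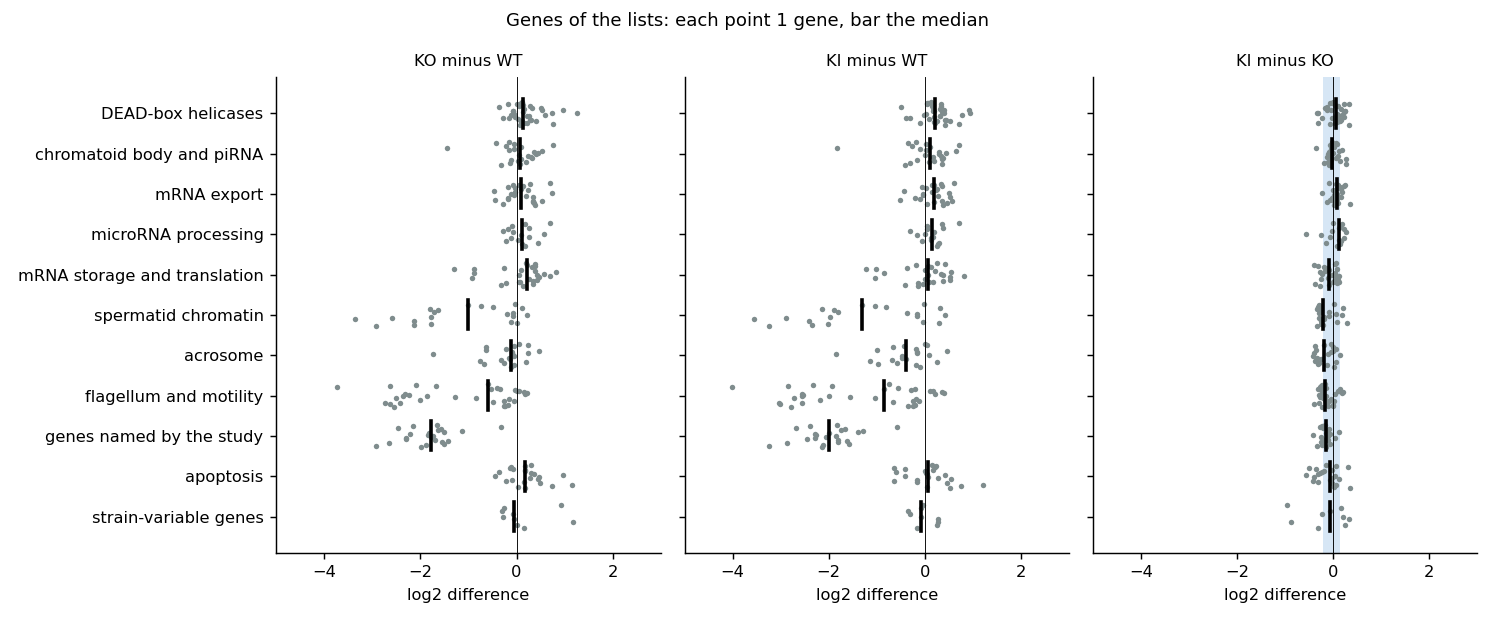
Each point is 1 tested gene of a list and each bar the list's median, as log2 difference (x axes) KO minus WT (left), KI minus WT (middle) and KI minus KO (right); the blue band at right runs between the quartiles of all genes tested. The spermatid chromatin, flagellum and study lists reach far below 0 in both mutants against WT. Their KI minus KO medians, at right, are -0.22, -0.16 and -0.16 log2 units. Many genes of these lists were named by the study as changed in these samples.

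The 75 called genes without overlap, Ddx25 aside, fell into groups by where the WT libraries lay. For 26 genes all 6 WT libraries were nearer the KI mean than the KO mean, and for 16 genes all 6 were nearer the KO mean. In 2 of the 26 (4930519F24Rik and Abca5) and 2 of the 16 WT lay outside the ranges of both mutants. For 14 genes WT 5 and WT 6 were nearer the KI mean while WT 1 to 4 were nearer the KO mean, and the last 19 had other mixtures. Counted by library, WT 1 to 4 were nearer KI for 38, 35, 31 and 30 of the 75, WT 5 for 49 and WT 6 for 55.

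Among the genes with WT nearer KI, Ly75 (DEC-205, an endocytic receptor of dendritic cells; chr2:60292103-60383303) was higher in KO. Its levels in KI 1, 2, 3, 5 and 6 were 1.06, 0.719, 0.638, 0.654 and 0.571 CPM, against 4.86, 7.18 and 10.4 CPM at the lowest, median and highest KO library and 0.744 to 1.25 CPM in WT. Each KI library lay below each KO library, and WT overlapped the KI range. The difference was -3.38 ± 0.23 log2 units (SE; adjusted p = 1.05e-08, and 2.44e-06 past 1 log2 unit). KI 4 held 8.11 CPM, a KO level. On the log2 scale, KO minus WT was 2.95 and KI minus WT -0.42. Slc4a10, a bicarbonate transporter less than 2 Mb away, was chosen after its values were seen and had the same order, with 1.89 ± 0.611 CPM in KI, 7.33 ± 1.61 CPM in KO and 1.80 to 4.07 CPM in WT.

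Gm33242, a processed pseudogene at chr8:83489743-83490799, was near absent in KO. It held 2.92, 3.0, 2.78, 1.59 and 2.77 CPM in KI 1, 2, 3, 5 and 6, and 2.60 to 6.0 CPM in WT. The 6 KO libraries held 1 count in all against 304 counts in the 5 KI libraries, a ratio of 362 with a 95% counting interval of 64.4 to 14334. KI 4 held none. The difference passed 1 log2 unit (adjusted p = 8.49e-08). Gm6853, a transcribed pseudogene at chr8:30177932-30183860, showed a smaller step from higher levels, at 35.0 ± 5.44 CPM in KI, 9.64 ± 2.49 CPM in KO and 43.7 CPM in WT (1.86 ± 0.16 log2 units; adjusted p = 0.0222 past 1 log2 unit).

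On chromosome 13, 3 of the 7 tested genes between 65780905 and 66441118 were called, and all were higher in KI. The ends of this stretch were set by its outermost called genes, so such a share is in part fixed by the calls. Of all genes tested, 0.522% were called. 2410141K09Rik, a protein-coding gene, held 3.23, 3.84, 2.55, 1.26 and 3.30 CPM in the KI libraries, 0.0475 to 0.405 CPM in KO and 2.13 to 4.14 CPM in WT (3.47 ± 0.33 log2 units; adjusted p = 0.000625 past 1 log2 unit). The long noncoding Gm26715 held 67 counts over the KI libraries and 2 over the KO libraries, a ratio of 39.9 (95% counting interval 10.6 to 336). Platr2, another long noncoding RNA, held 37 counts over KI and 0 in every KO library, so that KI was at least 2.51-fold higher against a floor of 3 counts per library; it was called in 7 of the 17 fits that left out 1 library. WT held both RNAs, at 0.331 to 2.57 CPM for Gm26715 and 0.142 to 0.924 CPM for Platr2, so at all 3 genes KO lay below KI and WT. At Gm26715 WT 1 to 4 held 1.19 to 2.57 CPM, above every KI library, and WT 5 and WT 6 held 0.331 and 0.689 CPM. KI minus WT there was -1.26 log2 units (adjusted p = 0.0276 for a change of any amount). At Platr2 WT 1 to 4 held 0.630 to 0.924 CPM, and WT 5 and WT 6 held 0.142 and 0.184 CPM.

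At Gm9008 the level was higher in KO. It held 6.69 to 10.2 CPM in KO and at most 0.0919 CPM in WT, and in KI it held 0.0442, 0.0399, 0, 2.85 and 0.0815 CPM in KI 1, 2, 3, 5 and 6. The KI libraries thus held almost none save KI 5, which lay between the genotypes (-3.84 ± 0.67 log2 units, adjusted p = 0.00777).

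A cluster on chromosome 14 was lower in KI. All 6 genes tested between 43258649 and 43416350 were lower in KI, in a stretch whose ends were set by called genes. 1700001F09Rik, the highest of them, held 14.9, 14, 10.02, 10.8 and 11.4 CPM in KI 1, 2, 3, 5 and 6, against 41.7, 48.7 and 63.6 CPM at the lowest, median and highest KO library and 38.6 to 82.8 CPM in WT. Every KI library lay under every KO and WT library, and KI 4, at 64.6 CPM, did not. The difference was -2.05 ± 0.20 log2 units (adjusted p = 0.0282 past 1 log2 unit). Gm9732 (-2.17), Gm9597 (-2.44) and Gm8138 (-3.09) also passed 1 log2 unit, with adjusted p of 0.00744, 0.0019 and 0.0909. Gm8126 (-1.51) and Gm8127 (-1.43), chosen after their values were seen, were called for a change of any amount only, Gm8127 in 10 of the 17 fits that left out 1 library. Gm8127 held 0.777 to 1.79 CPM in WT, which overlaps the KI range of 0.367 to 1.06 CPM and the KO range of 1.20 to 2.47 CPM, and Gm8138 held 0.274 to 0.797 CPM in WT, between the KI range of 0.0399 to 0.221 CPM and, in part, the KO range of 0.600 to 1.05 CPM. Gm9597 is annotated as a pseudogene, and reads that align to several places were not counted, so the values of near-identical copies in such a cluster are uncertain.

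Cpne7, a copine that binds phospholipids in response to calcium (chr8:123117374-123135182), was higher in KI than in both other genotypes. It held 2.21, 2.48, 4.51, 3.69 and 5.30 CPM in the KI libraries, 0.262 to 0.606 CPM in KO and 0.137 to 0.291 CPM in WT, and 0.339 CPM in KI 4 (3.04 ± 0.27 log2 units; adjusted p = 0.000435 past 1 log2 unit). Bdh1, a mitochondrial enzyme of ketone body metabolism that was chosen after its values were seen, rose in steps. WT held 5.21 to 6.91 CPM, KO 11.1 to 14.7 and KI 21.9 to 31.9, with no overlap between any pair (KI minus KO 0.99 ± 0.12, adjusted p = 7e-05).

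At the genes with WT 5 and WT 6 on the KI side, the WT libraries themselves split. Tpbg (5T4, a membrane glycoprotein of trophoblast that acts on Wnt signalling; chr9:85842380-85847040) held 13.1, 13.8, 12.5, 11 and 13.3 CPM in KI 1, 2, 3, 5 and 6 and 0.217 to 0.699 CPM in KO. In WT 1 to 4 it held 0.137, 0.321, 0.319 and 0.0485 CPM, and in WT 5 and WT 6 it held 8.62 and 9.10 CPM. The difference KI minus KO was 5.14 ± 0.88 log2 units (adjusted p = 0.0808 past 1 log2 unit). Gm18015, a processed pseudogene, held 1.95 to 2.88 CPM in KI, with 2 counts over all KO libraries against 286 over KI, a ratio of 170 (95% counting interval 46.7 to 1412). In WT it held at most 0.120 CPM in WT 1 to 4 and 2.22 and 3.31 CPM in WT 5 and WT 6. Gm25813, a small nuclear RNA gene, Lzts1, a leucine zipper protein, and Rab4a, a small GTPase of recycling endosomes, had the same pattern. WT 5 and WT 6 held 7.48 and 9.61 CPM of Gm25813, 3.83 and 4.96 CPM of Lzts1 and 2.08 and 2.25 CPM of Rab4a, while WT 1 to 4 held at most 0.482, 1.17 and 0.873 CPM.

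The split also ran the other way. 4930590H14Rik held 1.73 to 2.84 CPM in KO and 2.85 to 4.30 CPM in WT 1 to 4, and 0 in WT 5 and WT 6. Over the 5 KI libraries it held 3 counts against 285 over KO, so that KO was higher by a ratio of 79.8 (95% counting interval 27.0 to 389). Gm20886, a pseudogene of the Y chromosome, held 0.327 to 1.24 CPM in KO and 0.402 to 0.970 CPM in WT 1 to 4, and 0 in every KI library, in WT 5 and in WT 6, so that KO was at least 5.60-fold higher against a floor of 3 counts per library. KI 4 held 0.976 CPM. The labels name no difference between WT 5 or WT 6 and the other WT libraries. WT 5 and WT 6 were summed as a close pair in the fit with close libraries summed, so they may not be independent.

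**Figure D3:**
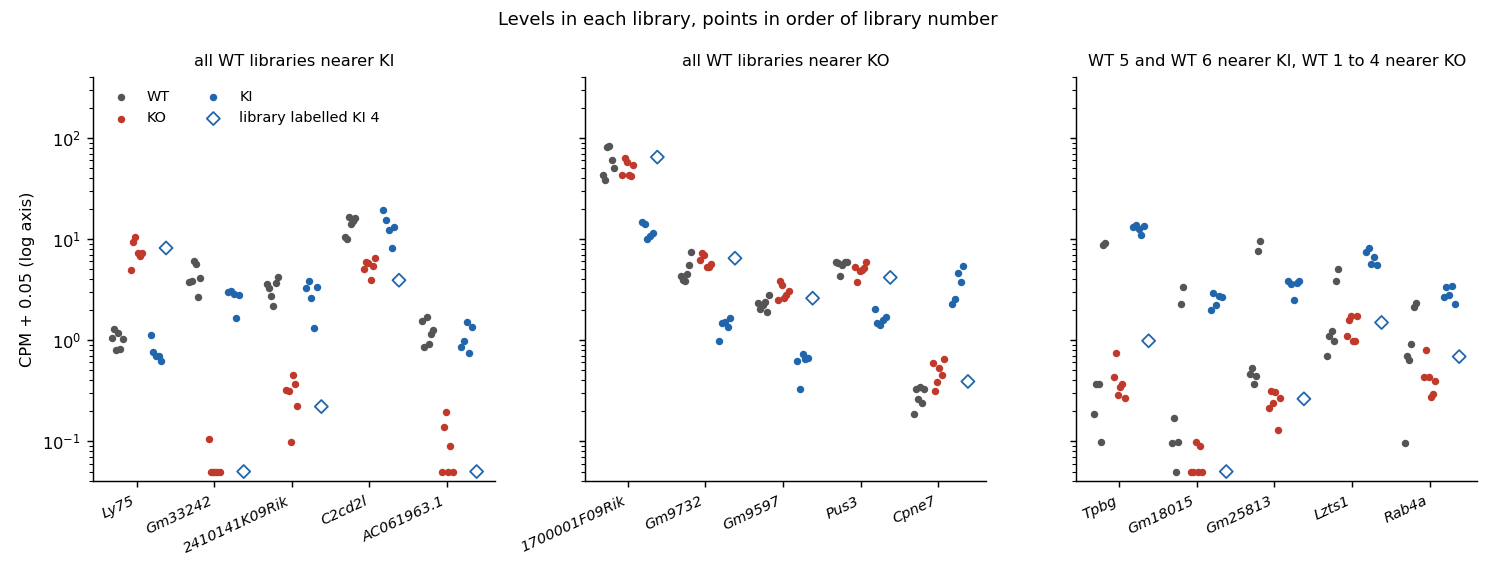
Levels of 15 called genes in each library, as CPM + 0.05 on a log axis (y axis), with WT in grey, KO in red, KI in blue and the library labelled KI 4 as an open diamond. In the left panel WT sits with KI, in the middle panel with KO, and in the right panel WT 5 and WT 6, the last 2 grey points of each gene, sit with KI while WT 1 to 4 sit with KO; the open diamond lies with KO or nearer to it throughout.

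The called genes were unevenly placed on the genome. Chromosome 14 held 18 of its 956 tested genes as called (1.88%), against 0.522% of all genes. Chromosome 9 held 21 of 1229 (1.71%), or 20 of 1228 (1.63%) without Ddx25. Chromosome 8 held 17 of 1138 (1.49%) and chromosome 7 held 1 of 1618 (0.0618%). Of the 111 genes, 54 (48.6%) had another called gene starting within 1 Mb. Of the 111 genes with the lowest p in KO against WT, 27 (24.3%) had another of their own number as close. With gaps of up to 2 Mb allowed, 67 of the 111 lay in 19 blocks of at least 2, and 31 lay in 5 blocks of at least 4. The 54 and the 67 hold Ddx25, which lay in a block with Pus3 and Pate2. With no strain given in the labels, DNA that differs between the colonies and the state of GRTH cannot be told apart at such blocks.

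Around Ddx25, 10 of the 385 genes tested within 20 Mb were called (2.6%), or 9 of 384 (2.34%) without Ddx25. By distance and without Ddx25, 2 of 71 within 5 Mb were called (2.82%), 7 of 98 from 5 to 10 Mb (7.14%), 2 of 303 from 20 to 40 Mb (0.660%), 3 of 117 from 40 to 60 Mb (2.56%) and 6 of 424 from 60 to 90 Mb (1.42%). From 10 to 20 Mb edgeR called 0 of 215, with 14 at an unadjusted p under 0.05, and DESeq2 called 3. Pus3, a pseudouridine synthase of transfer RNAs, starts 66 bases from the start of Ddx25 and runs the opposite way (chr9:35558595-35567401, plus strand). It held 1.99, 1.44, 1.37, 1.54 and 1.63 CPM in KI 1, 2, 3, 5 and 6, against 3.67, 5.05 and 5.85 CPM at the lowest, median and highest KO library and 4.30 to 5.94 CPM in WT. All KI libraries were below all KO and WT libraries, and KI 4 held 4.12 CPM (-1.63 ± 0.16 log2 units, adjusted p = 3.57e-06). Pate2, on the far side of Pus3, differed by -0.83 ± 0.19 log2 units (adjusted p = 0.0674) and was called in 3 of the 17 fits that left out 1 library, and its KI and KO libraries overlapped. The altered locus and the form of the protein cannot be told apart at these neighbours.

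The other 7 called genes of the window lay together between 44309237 and 45169946, about 9 Mb from Ddx25, where 38 genes were tested. The outermost called genes set the ends of this stretch. C2cd2l, a lipid transfer protein of contacts between the endoplasmic reticulum and the plasma membrane, held 19.1, 15.3, 12.3, 8.08 and 13 CPM in KI, 3.86 to 6.45 CPM in KO and 9.92 to 16.3 CPM in WT (1.34 ± 0.19, adjusted p = 0.000851). AC061963.1, an antisense RNA, held 0.700 to 1.46 CPM in KI, at most 0.143 CPM in KO and 0.803 to 1.65 CPM in WT (4.4 ± 0.49, adjusted p = 0.0019 past 1 log2 unit). The long noncoding C030014I23Rik was lower in KI and in WT than in KO, at 2.24 to 7.52 CPM, 3.81 to 5.80 CPM and 8.93 to 15.1 CPM (-1.75 ± 0.24, adjusted p = 0.000522). At these 3 genes and at Gm47596 (-2.43 ± 0.42, adjusted p = 0.00788) WT overlapped KI and not KO. The call of Gm47596 held in 12 of the 17 fits that left out 1 library. Ift46, a subunit of the particle that carries cargo along the growing flagellum, was highest in KO at 110 to 178 CPM, lower in KI at 65.3 to 101 CPM and lowest in WT at 50.9 to 67.9 CPM (KI minus KO -0.72 ± 0.15, adjusted p = 0.0317), and the call was lost without KI 3 and without KI 6. Cd3d, a subunit of the T cell receptor complex, was lowest in KI at 0.611 to 1.02 CPM, with 1.27 to 2.72 CPM in KO and 2.33 to 3.54 CPM in WT (-1.27 ± 0.23, adjusted p = 0.0131). Gm39327 (-1.11 ± 0.26, adjusted p = 0.0808) was called in 3 of the 17 fits that left out 1 library, and Cd3d in all 17. With close libraries summed, Cd3d, Ift46 and Gm39327 were not called.

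**Figure D4:**
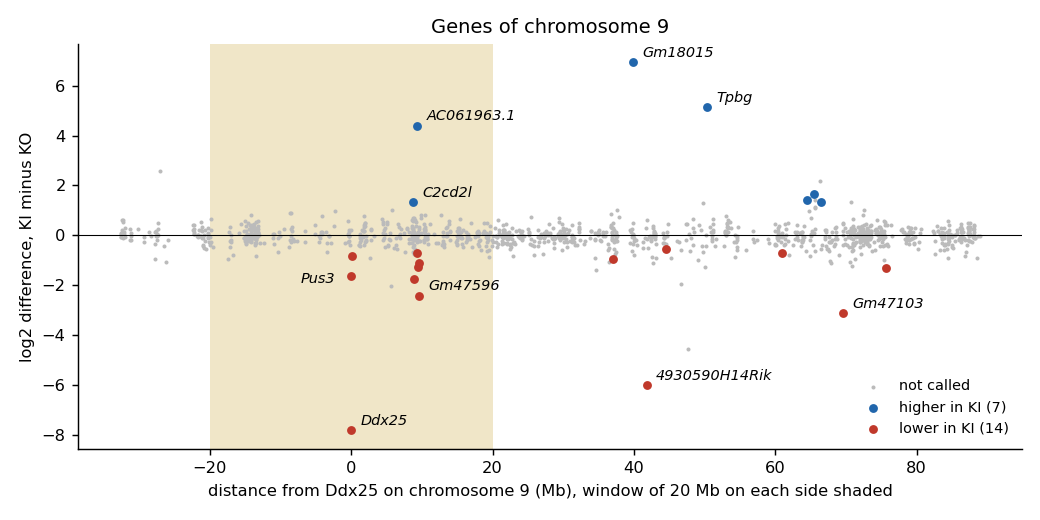
The log2 difference KI minus KO (y axis) of each tested gene of chromosome 9 is plotted against its distance from Ddx25 in Mb (x axis), with the 20 Mb on each side shaded. The 7 genes called higher in KI are blue and the 14 called lower are red; those in the shaded window lie at Ddx25 or about 9 Mb from it.

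Some calls came from only part of the KI libraries. For 34 of the 60 higher genes all 5 KI libraries lay above the KO range, for 13 genes 4 did, for 12 genes 3 and for 1 gene 2. For the lower genes the counts were 42, 7, 1 and 1. KI 1, KI 2 and KI 5 alone lay above KO for 11 genes. Gm12666, on chromosome 4, held 67.6, 66.3 and 83.2 CPM in KI 1, KI 2 and KI 5, and 0.547 and 0.489 CPM in KI 3 and KI 6, which lay within the KO range of 0.273 to 0.823 CPM and the WT range of 0.319 to 0.640 CPM. It was called past 1 log2 unit (6.43 ± 0.93, adjusted p = 0.00837).

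The genes that follow, at unequal levels among the KI libraries, were chosen after their values were seen. Not all of them had KI 1, KI 2 and KI 5 alone above KO. In a stretch of chromosome 14 from 4110526 to 8673378, with ends set by called genes, 9 of 82 tested genes were called, all higher in KI. Each of the 9 had its 2 highest levels in KI 1 and KI 2. Gm3453 held 83.3, 73.7, 6.01, 34.4 and 8.84 CPM in KI 1, 2, 3, 5 and 6 and 5.75 to 12.4 CPM in KO. Gm10338 held 19, 18.5, 1.5, 8.26 and 1.22 CPM, with 0.996 to 1.42 CPM in KO, so KI 3 too lay just above KO. In another stretch of the same chromosome, Gm5458 held 136, 130, 13.4, 64.9 and 17.9 CPM, with 11.7 to 22.5 CPM in KO. In these 3 genes KI 5 lay between the pair KI 1 and KI 2 and the pair KI 3 and KI 6. Rest, a repressor of neuronal genes, held 48.3, 50.2, 20.4, 64.2 and 18.1 CPM, with 16.3 to 21.6 CPM in KO and 13.8 to 21 CPM in WT. Gm3608 was high in KI 1 and KI 2 alone, at 80.7 and 81.8 CPM, against 2.33 to 3.30 CPM in the other KI libraries and 3.33 to 5.41 CPM in KO. Rest and Gm3608 were each called in 9 of the 17 fits that left out 1 library, and neither without KI 1 or without KI 2. Gm3453 was called in 13 of the 17, and not without KI 1.

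Zfp990, a zinc finger gene, had another division. KI 3, KI 5 and KI 6 held 143, 158 and 116 CPM, and KI 1 and KI 2 held 0.442 and 0.759 CPM. WT 5 and WT 6 held 120 and 110 CPM and WT 1 to 4 held 0.964 to 1.32 CPM, while the KO libraries held 0.347 to 1.69 CPM. It was the only call (6.38 log2 units, adjusted p = 0.081) among the 342 tested genes named Zfp and a number (0.292%, against 0.522% of all genes), and was called in 8 of the 17 fits that left out 1 library. A list held genes known to vary between inbred strains, in sequence or in level. Of its 9 tested genes 1 was called, against 0.522% of all genes: Ide, the insulin-degrading enzyme. It held 282, 297, 153, 167 and 209 CPM in KI 1, 2, 3, 5 and 6, 229 to 560 CPM in KO and 156 to 205 CPM in WT (-0.89 ± 0.21, adjusted p = 0.0803, called in 6 of the 17 fits). Nnt, a mitochondrial transhydrogenase deleted in part in some C57BL sublines, held 11.4 ± 6.27 CPM in KI, 9.57 ± 2.48 CPM in KO and 9.50 CPM in WT, and was not called. Its KI libraries divided as at Zfp990. KI 1 and KI 2 held 4.11 and 5.55 CPM, below every KO and WT library. KI 3, KI 5 and KI 6 held 16.4, 17.9 and 12.9 CPM. The KO libraries held 6.86 to 12.97 CPM, a range that takes in KI 6, and the WT libraries 8.61 to 12.26 CPM. Whether this division goes with strain was not tested. Glo1, a detoxifying enzyme that is duplicated in some strains, held 5.01 ± 0.656 CPM in KI, 4.37 ± 0.387 CPM in KO and 5.30 CPM in WT, and was not called.

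**Figure D5:**
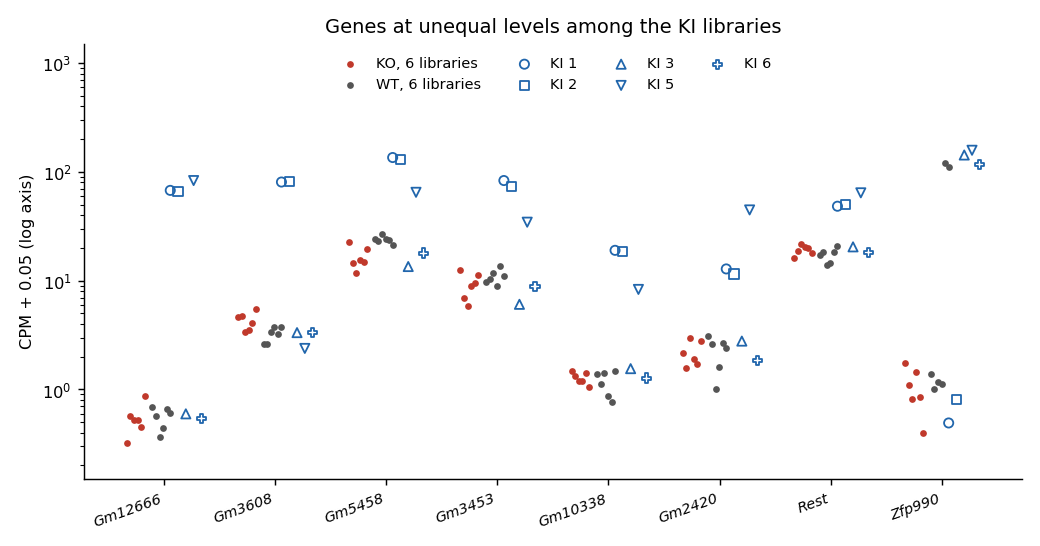
Levels of 8 called genes, as CPM + 0.05 on a log axis (y axis), in the KO libraries (red), the WT libraries (grey) and each KI library (blue, 1 symbol a library). For the first genes KI 1 and KI 2, and for most of them KI 5, lie above KO. KI 3 and KI 6 do not, save KI 3 at Gm10338, which lies just above the KO range. For Zfp990 KI 3, KI 5, KI 6, WT 5 and WT 6 lie together above all other libraries.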

How the data were processed

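The study isolated RS from WT, KO and KI mice, 6 libraries a genotype. The authors used cutadapt 3.4 for trimming and STAR 2.7.8a for alignment to GRCm38, left duplicates in, and counted read pairs by strand on GENCODE M18 genes with featureCounts 2.0.1. The deposited values are raw counts per gene for 54232 genes, without normalization, and were used as they stand. A column was matched to a sample by the name in its header, with 0 columns of values unmatched. Positions are those of the table, and symbols come from GENCODE M21, which named 54165 identifiers.

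One edgeR 4.0.16 model of genotype (R 4.3.3, limma 3.58.1, TMM scaling, filterByExpr) was fitted to the 17 libraries other than KI 4. A change of any amount was tested with glmQLFTest and a change past 1 log2 unit with glmTreat (worst-case null), by Benjamini-Hochberg over all 21257 genes at an adjusted p under 0.1. Differences are KI minus KO with SE, and intervals are 95%. Counting intervals are exact and cover counting error only. The fit was tested on simulated data with 200 genes changed. Alternatives were DESeq2 1.42.0, its size factors, other filters, other library sets, summed close libraries, a replicate block and each library left out. The members and lists were chosen with earlier results of these data known. Named genes were Ddx25, those past 1 log2 unit, the 12 largest rises and 12 largest falls without overlap, those within 20 Mb of Ddx25, called list members and the 4 most abundant of each list; others are marked in the text. Some called genes are not reported here. A gene was nearer a genotype by log2(CPM + 0.5). Python 3.11.15 and matplotlib 3.10.9 drew the plots.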

Additional observations from a re-analysis of the deposited data

Results flagged for a closer look

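In 12 of 148 groups of libraries examined, 1 library lay far from the rest of its genotype by the gap to its neighbour over the range; chance gives about 1 in 20 such groups. KI 5 was the odd library at 2 of the called genes, with 2.85 CPM of Gm9008 against at most 0.0815 CPM in the other KI libraries, and 1.59 CPM of Gm33242 against 2.77 to 3.0 CPM. KI 3 held 2.42 CPM of Gm25813, against 3.56 to 3.80 CPM. KI 2 held 0.280 CPM of Gm9597, against 0.575 to 0.683 CPM. Among the KO libraries, KO 1 held 0.0546 CPM of Gm33242 (1 count) against 0 in the others, KO 2 held 0.743 CPM of Rab4a against 0.221 to 0.382 CPM, and KO 5 held 2.84 CPM of 4930590H14Rik against 1.73 to 2.10 CPM. With these values included, the KI and KO libraries did not overlap at any of these genes.

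Genes not called between KI and KO were flagged as well. KI 3 held the lowest levels in KI of the transition protein gene Tnp2, 296.8 CPM against 385 to 418 CPM, and of Prm2, 394 CPM against 525 to 561 CPM. KO 3 held 255 CPM of Prm2 against 559 to 781 CPM in the other KO libraries, and 270.0 CPM of Ddx17, a helicase of microRNA processing, against 187 to 212 CPM. KI 1 held 3.85 CPM of Glo1, against 5.18 to 5.42 CPM.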

How the results depend on the processing

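No gene named by the rule changed direction with a call under any alternative. The numbers of calls did move. For a change of any amount, higher and lower in KI, DESeq2 called 151 and 101, no filter 135 higher, at least 10 counts in every library 36 and 33, an adjusted p threshold of 0.05 gave 35 higher, only the KI and KO libraries 32 lower, KI 4 kept 16 and 5, and close libraries summed 27 and 17. Past 1 log2 unit DESeq2 called 17 higher, no filter 26 higher, 10 counts in every library 1 and 3, KI 4 kept 1 and 0, close libraries summed 5 and 3, and the interval form of glmTreat, chosen after seeing the data, 11 lower. Within 20 Mb of Ddx25, 10 counts in every library gave 6 calls, KI 4 kept 2 and close libraries summed 6. Leaving out 1 library gave 29 to 87 higher and 28 to 54 lower, 6 to 10 and 4 to 8 past 1 log2 unit, and 7 to 11 near Ddx25.

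The scaling moved the split of directions. Of the calls 54.1% were higher in KI, against 63.9% with DESeq2's size factors, 67.7% with only the KI and KO libraries and 70.7% without a filter, with medians over all genes of -0.03, 0.02, 0.05 and 0.03 log2 units. The replicate block gave 27 higher and 29 lower, 53 of them among the 111. The deviations of same-numbered KI and KO libraries had correlations of both signs, from -0.39 to 0.68 over 10738 genes. KI 3 with KO 3 had the highest of any KI and KO pair, 0.68. This is a description, and whether the numbers pair the libraries was not tested. A gene under the floor of 3 counts in both genotypes was not detectable at this depth.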
